A study of Homo sapiens with 8 samples.

Results

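The genes described here encode the tight junctions of the hCMEC/D3 line and the protein complexes that set cell polarity. hCMEC/D3 was derived from the endothelium of human brain microvessels, immortalised, and serves in culture as a model of the blood-brain barrier. The members were chosen by symbol: 23 claudin genes, and 29 listed genes for other junction proteins and polarity complexes. All 52 were found among the 23346 genes of the deposited table. RNA was sequenced from 8 replicate samples of the line, which formed 1 group with no treatment or comparison group. The labels do not say whether the replicates were separate cultures, so p-values measure only the spread between these samples, which may be technical. hCMEC/D3 is a single cell line grown without the pericytes and astrocytes of brain vessels, which limits it as a model.

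Tight junctions seal the space between neighbouring cells. Claudins form the strands that close it or make it selectively permeable, and occludin and the junctional adhesion molecules lie beside them in the membrane. ZO proteins, cingulins and PDZ scaffolds tie these proteins to actin. The PAR, Crumbs and Scribble complexes decide where along the cell border the junction is built. In brain endothelium the junction is unusually tight, and CLDN5 is its best known claudin.

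Libraries held 69388544 to 90205244 counts. For the labelled cell type, all 12 endothelial genes were detected, with CDH5, the endothelial cadherin, at 493 to 994 CPM. Of 9 epithelial markers 3 were detected (KRT18, KRT8 and KRT19, with means of 358, 26.1 and 2.61 CPM). EPCAM and CDH1 had means of 0.943 and 0.309 CPM. Of the oligodendrocyte genes, CNP and MBP were detected (means of 185 and 35.7 CPM), whereas MOG, SOX10 and MAG had means of 0.683 CPM or less. Mural cell markers were detected for 4 of 7 genes (CSPG4, RGS5, PDGFRB and ACTA2, with means of 4.74 to 32.9 CPM). GJA1, a connexin on the astrocyte list, had a mean of 353 CPM, whereas AQP4 was at 0 and GFAP at 0.557 CPM. TUBB3 and SYT1 were detected among 5 neuron genes (53.7 and 4.17 CPM), with STMN2 at 0, and no microglia marker of 5 was detected. Libraries differed along transcript length. The slope of a library's deviation from the gene means per log2 unit of length was 0.15, -0.23, 0.15, 0.14, 0.09, 0.15, -0.11 and -0.34 in replicates 1 to 8, so long transcripts were low and short ones high in replicates 2, 7 and 8. In these bulk samples, fewer cells with a transcript and less of it per cell cannot be told apart.

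A gene counted as detected at 1 CPM or more in all 8 libraries, where CPM is the count scaled to library size. By this rule 31 of the 52 members (59.6%) were detected, against 51.3% of all genes in the table. Among claudins 8 of 23 were detected (34.8%), and among the other members 23 of 29 (79.3%). The 8 claudins were CLDN11, CLDN5, CLDN1, CLDN7, CLDN12, CLDN15, CLDN14 and CLDN23. Outside the claudins, each role had at least 1 detected gene, and the 6 undetected genes were MARVELD3, JAM2, TJP3, PRKCZ, CRB3 and AMOT. Positions are the spans in the deposited table (GRCh37), and exons are those of the canonical transcript. Levels of different genes are compared below as RPKM, the CPM per kb of the gene's canonical transcript. The median over detected members was 8.24 RPKM, against 11.4 RPKM over all detected genes with a known length. Of the 31 detected members, 12 lay above that second value.

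The start regions of detected members had a higher median number of CG dinucleotides than those of undetected members. Most of the undetected ones were claudins. RefSeq promoters were matched for 40 of the 52 members, and CLDN5 was among those without a match. Within the 250 bases before the start, the 24 detected members had a median of 21.5 CG dinucleotides and the 16 undetected members 6, taking the median of a gene's promoters where it has several. Among claudins the medians were 13.75 for 6 detected and 3.5 for 12 undetected genes. Their ranges overlapped, from 7 to 28 for the detected and from 0 to 19 for the undetected claudins. Among the other members they were 23.25 for 18 detected and 19.5 for 4 undetected genes. Over all genes of the table with a promoter the medians were 21 for 9466 detected genes and 7 for 5922 undetected ones. These counts were not tested. 4 promoters are shown, all outside any annotated exon: CLDN11 as the highest member per length, MPDZ as a variable one, and CLDN25 and CLDN17 as claudins without a count. The member with the most CG dinucleotides was LLGL1, with 47, and a second promoter of CLDN11 has 2. The sequences are given 5′ to 3′ on the gene's strand with CG dinucleotides in capitals. The sequences are RefSeq's (GRCh38.p14), and the positions are those of their exact matches in GRCh37, the build of the deposited table. For MPDZ the window directly precedes the canonical transcript, whose start lies outside the span in the deposited table (13105703 to 13250365).
CLDN11, chr3:170136406-170136655, plus strand, 29 CG: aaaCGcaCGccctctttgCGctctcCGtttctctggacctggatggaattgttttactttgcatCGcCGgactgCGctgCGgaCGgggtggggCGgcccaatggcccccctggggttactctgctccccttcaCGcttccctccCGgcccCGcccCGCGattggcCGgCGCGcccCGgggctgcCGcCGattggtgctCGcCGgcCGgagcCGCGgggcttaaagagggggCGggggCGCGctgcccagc
MPDZ, chr9:13279692-13279941, minus strand, 17 CG: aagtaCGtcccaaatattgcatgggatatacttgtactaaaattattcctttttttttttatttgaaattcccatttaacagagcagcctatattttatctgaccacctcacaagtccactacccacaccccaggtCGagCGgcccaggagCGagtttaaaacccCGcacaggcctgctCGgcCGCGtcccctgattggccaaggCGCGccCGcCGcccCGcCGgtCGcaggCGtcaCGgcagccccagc
CLDN25, chr11:113650268-113650517, plus strand, 2 CG: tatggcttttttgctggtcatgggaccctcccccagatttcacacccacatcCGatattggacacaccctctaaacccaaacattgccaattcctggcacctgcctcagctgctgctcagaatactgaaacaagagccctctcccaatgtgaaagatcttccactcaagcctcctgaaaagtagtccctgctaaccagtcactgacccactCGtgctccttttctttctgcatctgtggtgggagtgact
CLDN17, chr21:31539124-31539373, minus strand, 0 CG: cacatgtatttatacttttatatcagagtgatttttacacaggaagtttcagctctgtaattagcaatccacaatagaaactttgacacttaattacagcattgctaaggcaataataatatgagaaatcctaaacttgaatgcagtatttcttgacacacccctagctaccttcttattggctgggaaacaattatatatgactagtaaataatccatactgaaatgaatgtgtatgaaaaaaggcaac

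The letters of 6 short motifs were searched on both strands of the same windows, counting each of a gene's alternative promoters. The GC box GGGCGG was in 25 of 37 promoters of detected members, in 11 of 24 of undetected ones and in 42.6% of all promoters in the RefSeq table. The TATA box letters TATAAA were in 0 of 37 and 1 of 24, against 10.7% of all promoters. CCAAT was in 13 of 37 and 7 of 24, against 32%. The E-box CAGGTG, a sequence bound by Snail-type repressors, was in 7 of 37 and 6 of 24, against 17.5%. The TEAD letters GGAATG were in 4 of 37 and 0 of 24, against 11.9%, and the ETS letters CCGGAA in 3 of 37 and 1 of 24, against 14.5%. No motif count was tested. A match describes letters only, and GC boxes overlap the CG dinucleotides counted above.

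CLDN11 and CLDN5 were the highest claudins, and CLDN11 was the highest member per canonical transcript length, per union exon length and in mean CQN value. CLDN11 (chromosome 3, 170136653 to 170152479, 3 exons), a claudin also known from myelin and testis, had 257.5, 269.5, 273, 264, 277, 256.5, 266 and 298 CPM in replicates 1 to 8. All libraries lay within 1.16-fold of each other, and its coefficient of variation of 4.90% was the lowest of the 31 detected members. CLDN5 (chromosome 22, 19510547 to 19512860, 1 exon) had 89.95, 237, 87.1, 88.9, 71.5, 94.7, 79.3 and 252 CPM. Replicates 2 and 8 were above all others, without overlap, and the highest library was 3.53 times the lowest. Per length, the means were 97.996 ± 4.80 RPKM for CLDN11 and 90.4 ± 53.6 RPKM for CLDN5 (SD, n = 8), at the 93.7 and 93.1 percentiles of detected genes.

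Per canonical transcript, which of these claudins led differed between libraries, whereas CLDN11 led under other scales. The log2 ratio of CLDN5 to CLDN11 per transcript length averaged -0.29 ± 0.68 (SD), positive in 2 libraries (replicates 2 and 8) and negative in 6 (p = 0.266 and adjusted p = 0.279 by an exact sign-flip permutation test, two-sided, n = 8). Without replicates 2 and 8 it was -0.65 (exact permutation, adjusted p = 0.0328). The transcript length used for CLDN5 is uncertain. Its canonical transcript has 1384 nt and the union of its annotated exons 3429 nt, and with union lengths the ratio was -0.95 (exact permutation, adjusted p = 0.0313). On the deposited CQN-normalised values, in which the authors corrected each library by conditional quantile normalisation, it was -0.40 ± 0.38, negative in 7 of 8 libraries (exact permutation, adjusted p = 0.0164). Without length correction it was -1.29 (exact permutation, adjusted p = 0.00965).

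CLDN1, a claudin of epidermis and other epithelia that is debated in brain endothelium, followed at 18.5 ± 2.58 RPKM (SD, n = 8). Its CPM values in replicates 1 to 8 were 76.3, 56.7, 51.7, 64.2, 71.4, 68.7, 66.6 and 53.3, with replicates 3, 8 and 2 lowest. CLDN11 exceeded CLDN1 by a log2 ratio of 2.42 ± 0.25 per length and CLDN5 exceeded it by 2.13 ± 0.86, each in 8 of 8 libraries (exact permutation test, p = 0.00781 and adjusted p = 0.00911, n = 8). With union exon lengths the second ratio fell to 0.89. The smallest p this test can give with 8 libraries is 0.00781, and adjustment was over the 21 pairs of genes tested here. Every tested ratio described below as having 1 sign in 8 of 8 libraries has this p and this adjusted p.

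CLDN7 and CLDN12 followed. CLDN7 (chromosome 17, 7163222 to 7166512), an epithelial claudin, had 15.2, 24.2, 12.7, 15.8, 13.04, 15.0, 15.5 and 25.5 CPM. Its 2 highest libraries were again replicates 8 and 2, but its span overlaps C17orf81 and the use of strand in counting is not given in the sources used here. CLDN12 (chromosome 7, 90032648 to 90045268), a claudin found in many tissues including brain endothelium, had 35.5, 19.3, 35.4, 33.4, 31.0, 31.3, 29.3 and 17.55 CPM, with the same 2 libraries lowest. Both CLDN11 (log2 ratio 3.61 ± 0.44) and CLDN5 (3.32 ± 1.09) exceeded CLDN12 per length in 8 of 8 libraries.

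The remaining detected claudins were low. CLDN15, which forms cation channels in intestine, ranged from 3.93 CPM in replicate 1 to 8.47 CPM in replicate 8 around a median of 4.97. CLDN14, known from the inner ear and kidney, ranged from 2.697 CPM in replicate 8 to 6.45 CPM in replicate 5 around 4.68. CLDN23 was nearest the detection level, from 1.67 to 2.78 CPM with a mean of 2.08 ± 0.377 CPM (SD, n = 8). All 3 were under 5 RPKM.

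The other 15 claudins were not detected, with means of 0.553 CPM or less. CLDN16 (0.553 CPM), a kidney claudin for magnesium uptake, and CLDN4 (0.537 CPM), an epithelial claudin, were the highest of them. CLDN3, which is often named beside CLDN5 in blood-brain barrier work, had 0.104 to 0.449 CPM. CLDN3 and CLDN4 lie inside the same 4 longer listed genes, so the assignment of their few reads is uncertain. CLDN20, CLDN18, CLDN6, CLDN9, CLDN10 and CLDN19 had means from 0.171 to 0.359 CPM, and CLDN2, the channel claudin of leaky epithelia, had 0.0525 CPM. CLDN24 was counted in 4 libraries and CLDN8 in 1, at 0.0551 CPM or less. CLDN17, CLDN22 and CLDN25 had 0 counts in all 8 libraries, and the limit set by 3 read pairs was 0.0665 to 0.0880 CPM per library (counting error only).

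**Figure D1:**
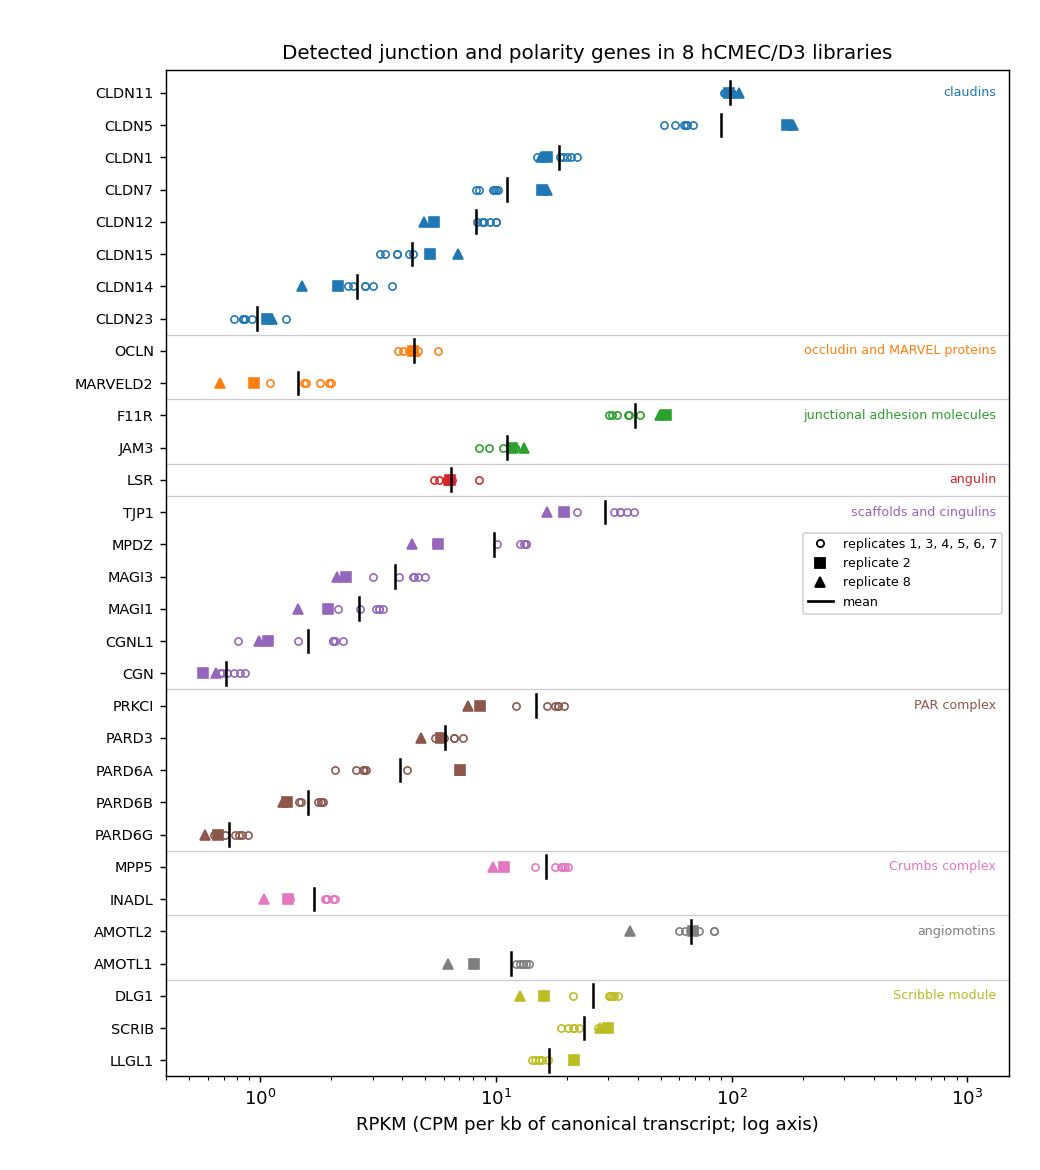
RPKM (log axis) of the 31 detected members in each of 8 libraries, grouped by role. Each point is a library, squares and triangles mark replicates 2 and 8, and the vertical bar is the mean. CLDN11 and CLDN5 have the highest means, at 97.996 and 90.4 RPKM, and the CLDN5 points of replicates 2 and 8 stand above its other libraries.

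Among MARVEL proteins, which share a 4-pass membrane domain with occludin, OCLN was above MARVELD2, and MARVELD3 was just under the detection level. OCLN (chromosome 5, 68788119 to 68853931) had 35.1, 27.5, 27.6, 28.8, 24.96, 26.5, 23.7 and 28.0 CPM. MARVELD2, or tricellulin, which sits where 3 cells meet, had 8.86, 4.14, 7.91, 8.65, 6.79, 6.89, 4.85 and 2.98 CPM, lowest in replicates 8, 2 and 7. Per length MARVELD2 lay below OCLN by a log2 ratio of -1.70 ± 0.52 in 8 of 8 libraries, and by -1.02 ± 0.87 on the CQN values. LSR, or angulin-1, which recruits tricellulin to these corners, had 10.5 to 16.4 CPM. It exceeded MARVELD2 per length by 2.22 ± 0.64 in 8 of 8 libraries, and by 1.24 ± 0.29 on the CQN values. MARVELD3 had 0.91 to 1.24 CPM in replicates other than 2 and 8, and 0.864 and 0.710 CPM in those.

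Of the junctional adhesion molecules, F11R (JAM-A) was highest. F11R (chromosome 1, 160965001 to 160991133, 10 exons) had 189, 244, 152, 168, 140.3, 169.8, 144 and 229.8 CPM, with replicates 2 and 8 above the other 6. JAM3 (JAM-C) had 31.9 to 49.6 CPM and also its highest value in replicate 8. F11R exceeded JAM3 per length by a log2 ratio of 1.78 ± 0.20 in 8 of 8 libraries. JAM2 (JAM-B), known from endothelial venules, was not detected, with no count in replicate 1 and at most 0.183 CPM elsewhere.

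The scaffolds were led by TJP1, which encodes ZO-1 and links claudins and occludin to actin. TJP1 (chromosome 15, 29992357 to 30114706, 28 exons) had 278, 139.5, 259.8, 241.5, 227, 242, 158 and 118 CPM, lowest in replicates 8, 2 and 7. TJP3 (ZO-3), an epithelial paralog of TJP1, was not detected (0.126 CPM). TJP1 exceeded OCLN by 2.63 ± 0.43 per length in 8 of 8 libraries.

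MPDZ encodes MUPP1, a scaffold with many PDZ domains, and INADL encodes PATJ, its relative in the Crumbs complex. MPDZ (chromosome 9, 13105703 to 13250365, 47 exons) had 103, 44.3, 98.5, 104.7, 78.7, 105.1, 43.7 and 34.6 CPM, with replicates 8, 7 and 2 below all others. INADL lay below MPDZ per length by a log2 ratio of -2.44 ± 0.32 in 8 of 8 libraries. MAGI1 and MAGI3, inverted scaffolds of the same class, had 2.63 ± 0.703 and 3.75 ± 1.12 RPKM (SD, n = 8). Their ratio was close to constant, at -0.50 ± 0.10 in 8 of 8 libraries. The cingulins, which bind ZO-1 and myosin, were low: CGNL1 (paracingulin) had 5.80 to 16.2 CPM and CGN 2.93 to 4.41 CPM. CGN lay below CGNL1 by -1.03 ± 0.53 per length in 8 of 8 libraries.

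In the PAR complex, which binds the small GTPase CDC42 and phosphorylates junction proteins, the kinase was the iota isoform. PRKCI (chromosome 3, 169940220 to 170023770) had 87.3, 41.7, 94.98, 89.5, 80.4, 89.3, 59.45 and 37.04 CPM, lowest in replicates 8 and 2. PRKCZ, the zeta isoform, was not detected, at 0.308 to 0.755 CPM, and its span overlaps C1orf86. Per length PRKCI stood above PRKCZ by a log2 ratio of 5.62 ± 0.54, with no test because PRKCZ was not detected. PARD3, the scaffold that carries the kinase to junctions, had 6.07 ± 0.754 RPKM (SD, n = 8) and lay below PRKCI by -1.22 ± 0.42 in 8 of 8 libraries.

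All 3 genes for the adaptor PAR6 were detected at low levels. PARD6A (chromosome 16, 67694851 to 67696681, 3 exons) had 3.17, 8.78, 3.43, 3.39, 3.50, 2.58, 5.24 and 8.75 CPM, with replicates 2 and 8 highest and replicate 7 next. PARD6B had 5.70 to 8.48 CPM and PARD6G 2.25 to 3.42 CPM. Per length the order was PARD6A at 3.90 ± 2.03, PARD6B at 1.59 ± 0.246 and PARD6G at 0.739 ± 0.107 RPKM (SD, n = 8). PARD6B lay below PARD6A by a log2 ratio of -1.17 ± 0.86 and above PARD6G by 1.07 ± 0.22, each in 8 of 8 libraries. The transcript of PARD6A has 1244 nt and that of PARD6B 4579 nt, and without length correction the first ratio turned to 0.71. PARD6A exceeded PARD6G by 2.25 ± 0.83 in 8 of 8 libraries, and without length correction by 0.62, which no longer passed the test.

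In the Crumbs complex, MPP5 (PALS1), the link between Crumbs and PATJ, had 16.4 ± 4.16 RPKM (SD, n = 8). Its CPM values were 105.0, 58.9, 110.7, 97.5, 108, 103, 79.9 and 53.1, lowest in replicates 8 and 2. CRB3, the Crumbs protein of epithelia that anchors MPP5 at the membrane, was not detected, at 0.0275 to 0.181 CPM. MPP5 thus stood above CRB3 per length by a log2 ratio of 6.40 ± 0.53. CRB1 and CRB2, the other Crumbs genes, had means of 0.0491 and 0.121 CPM, so none of the 3 was detected.

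Angiomotins bind MPP5, PATJ and the transcriptional coactivator YAP, and are known from endothelial migration. AMOTL2 (chromosome 3, 134074190 to 134093406, 10 exons) had 67.0 ± 14.9 RPKM (SD, n = 8), next to CLDN5. Its order against CLDN5 was not tested, and AMOTL2 was the higher in 5 of 8 libraries. It was also higher without replicates 2 and 8 (71.7 against 61.6 RPKM), with union exon lengths (50.3 against 36.5 RPKM) and in mean CQN value (8.57 against 8.53). Its CPM values were 323, 335, 291, 352.6, 408.7, 408.8, 309 and 181, with replicate 8 below the other 7. AMOTL1 had 120.0, 72.3, 124.5, 117, 117, 109, 114 and 56.4 CPM, and AMOT was not detected, at 0.170 to 0.616 CPM. AMOTL1 lay below AMOTL2 per length by a log2 ratio of -2.54 ± 0.31 in 8 of 8 libraries.

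All 3 Scribble module genes, which mark the side opposite the PAR complex, were detected. DLG1 had 153, 77.8, 150.5, 147, 159.8, 147, 103 and 61.3 CPM, lowest in replicates 8 and 2. SCRIB had 106, 167, 119.9, 119, 126, 113, 152.6 and 154.6 CPM, highest in replicates 2, 8 and 7. LLGL1 had 59.9 to 90.5 CPM, with its 2 highest values in replicates 2 and 8. The span of LLGL1 overlaps FLII, and the use of strand in counting is not given. The order of SCRIB and DLG1 was not resolved per canonical transcript, with a log2 ratio of -0.07 ± 0.75, positive in 3 libraries (exact permutation p = 0.805, adjusted p = 0.805, n = 8). SCRIB was the higher on the CQN values, by 0.89 ± 0.19 (exact permutation, adjusted p = 0.00863), and with union exon lengths, by 1.47 (0.0082). DLG1 and LLGL1 were not resolved either (0.55 ± 0.76, exact permutation p = 0.0938, adjusted p = 0.104, n = 8). That ratio passed the test in opposite directions under other settings: it was -0.58 with union exon lengths (exact permutation, adjusted p = 0.0082), 0.25 ± 0.23 on the CQN values (0.0313) and 0.94 without replicates 2 and 8 (0.0328). SCRIB exceeded LLGL1 by 0.49 ± 0.12 in 8 of 8 libraries.

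**Figure D2:**
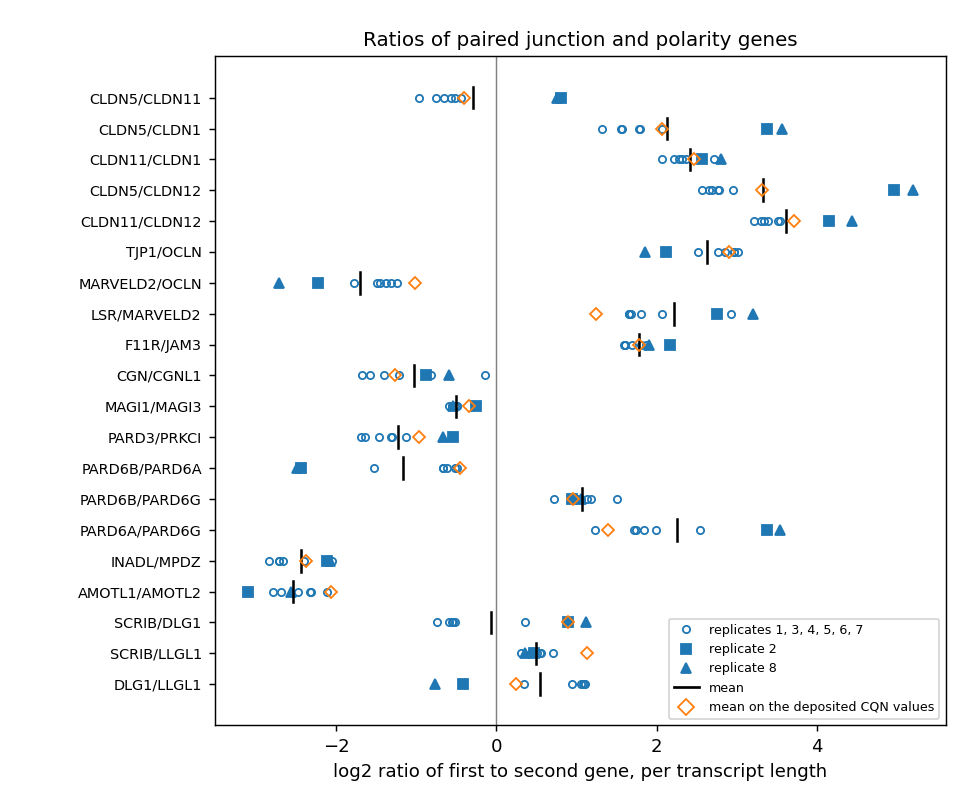
Log2 ratio of the first to the second gene per transcript length for 20 pairs of members with both genes detected. Blue points are the 8 libraries, black bars their means, and orange diamonds the means on the deposited CQN values. For 17 of them the adjusted p was under 0.05. CLDN5/CLDN11, SCRIB/DLG1 and DLG1/LLGL1 have libraries on both sides of 0.

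Each gene's variation between libraries was then set against that of genes of like abundance. For all 11980 detected genes, edgeR tested how well the trended dispersion fitted. Of the 31 detected members, 3 varied more than the trend (9.68%), against 4.66% of all detected genes, and 7 (22.6%) had an unadjusted p under 0.05, against 13.1% of all detected genes. They were CLDN5 (edgeR adjusted p = 7.36e-04), MPDZ (0.0200) and PARD6A (0.0202). Against DESeq2's fitted trend 11 members were called, against 23.5% of all genes. CLDN5 and PARD6A were both high in replicates 2 and 8, and MPDZ was low in replicates 2, 7 and 8. Without replicates 2 and 8, CLDN5 (adjusted p = 1.00) and PARD6A (0.662) no longer passed, whereas MPDZ (0.00295) and CGNL1 (0.00295) did, against 2.75% of all genes. CGNL1 was lowest in replicate 7.

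In each library, smooth trends on GC content and length were then removed. After this step 4 members exceeded the variation trend, against 6.60% of 11636 genes: CLDN5 (edgeR adjusted p = 0.0123), MPDZ (0.0494), F11R (0.00681) and CLDN14 (0.00573). PARD6A did not pass (adjusted p = 1.00). F11R and CLDN14 had adjusted p-values of 1.00 before the trend was removed. Leaving out single replicates was tried only with the trend kept in. There, MPDZ lost its call without replicate 7 (edgeR adjusted p = 0.0808), and PARD6A without replicate 2 (0.101) or replicate 6 (0.0968).

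Members were longer than most genes, and their deviations in replicates 2 and 8 went with both length and GC content. The median canonical transcript had 4639 nt for detected members and 3351.5 nt for detected genes, and 23 of 31 members exceeded the latter. Replicate 8 was the lowest library for 15 of these 23 longer members and for 1 of the 8 shorter ones. It was lowest for 16 of the 31 members together, against 31.1% of all detected genes of any length. Of the longer members, 4 went the other way, with their highest value in replicate 2 or 8. Across the 31 members, the deviation in replicate 8 from the gene's mean had a Spearman correlation of -0.61 with length and 0.59 with GC content. In replicate 2 these were -0.60 and 0.73. Over all detected genes with a length, the correlation with length was -0.65 in replicate 8 and -0.59 in replicate 2. These are correlations across genes of the same library, which are not independent.

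**Figure D3:**
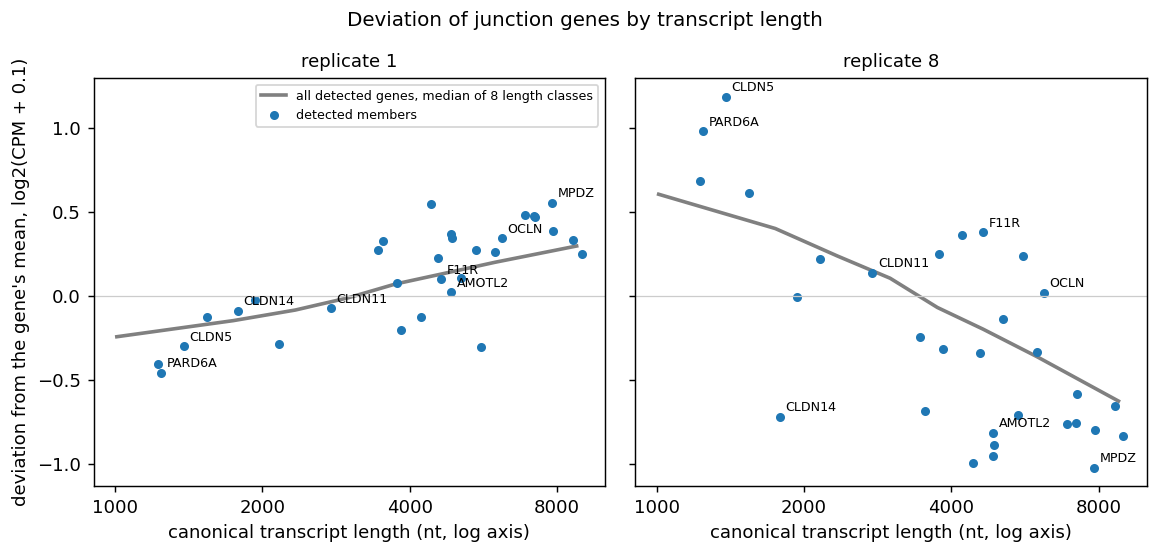
Deviation of log2(CPM + 0.1) from each gene's mean against canonical transcript length (log axis) in replicates 1 and 8. Points are the 31 detected members, and the grey line is the median of all detected genes in 8 length classes. In replicate 8 the line runs from 0.61 for the shortest class to -0.62 for the longest, with CLDN5 and F11R above it and CLDN14 and AMOTL2 below.

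CQN is a method that corrects each library for length and GC content, and most members spread less on the authors' CQN values than on log2 CPM. The median SD over libraries was 0.37 on log2(CPM + 0.1) and 0.19 on CQN values for detected members, against 0.28 and 0.16 for all detected genes. The SD was smaller on CQN values for 23 of 31 members. For MPP5 it went from 0.42 to 0.09, for MAGI3 from 0.48 to 0.09 and for TJP1 from 0.47 to 0.14.

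For the other 8 members the CQN values spread as widely or more widely, among them OCLN and F11R. OCLN, which varied little in CPM (SD of log2 values 0.17), had CQN values of 4.70, 5.14, 4.32, 4.42, 4.36, 4.29, 4.66 and 5.34 in replicates 1 to 8 (SD 0.39). F11R had 7.69, 8.40, 7.39, 7.57, 7.30, 7.60, 7.46 and 8.40 (SD 0.43, against 0.30 in log2 CPM). CLDN5, which narrowed, had 8.60, 9.07, 8.51, 8.46, 8.06, 8.63, 7.86 and 9.04 (SD 0.42, against 0.72). In all 3 genes replicates 2 and 8 were the highest libraries on this scale, as in JAM3, PARD6A, PARD6B, LLGL1, INADL and, within a narrow range, CLDN11. Replicate 8 was highest on CQN values for 4 detected members and for 27.5% of all detected genes. For replicate 2 these were 7 members and 13.5%. OCLN, F11R and CLDN5 were chosen for this description after their values were seen.

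LSR, MARVELD2 and CLDN14 had their lowest CQN values in replicates 2 and 8, as did DLG1, PRKCI, CLDN12, AMOTL1, MPP5 and MAGI3. On this scale replicate 8 was lowest for 13 of the 31 detected members and for 23.5% of all detected genes. Replicate 2 was lowest for 2 members and for 11.5% of all detected genes. LSR had CQN values of 4.40 and 4.25 in replicates 2 and 8 and 4.89 to 5.17 in the others. MARVELD2 had 3.15 and 2.71 in these libraries and 3.39 to 4.13 in the others, and CLDN14 had 2.64 and 2.20 against 3.15 to 3.81. AMOTL2 had 7.66 in replicate 8 and 8.49 to 9.01 in the other 7. CLDN11 stayed between 8.78 and 9.13, with replicates 8 and 2 its highest libraries (9.13 and 8.99). The endothelial markers were not level across libraries either: their summed CPM ranged from 2522 to 4614. On CQN values, PECAM1, VWF, FLT1, TIE1, ERG, ESAM and EMCN also had replicates 2 and 8 as their highest libraries. CDH5, KDR, TEK, ENG and ROBO4 did not. The part of this marker spread in the values of the members was not tested.

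**Figure D4:**
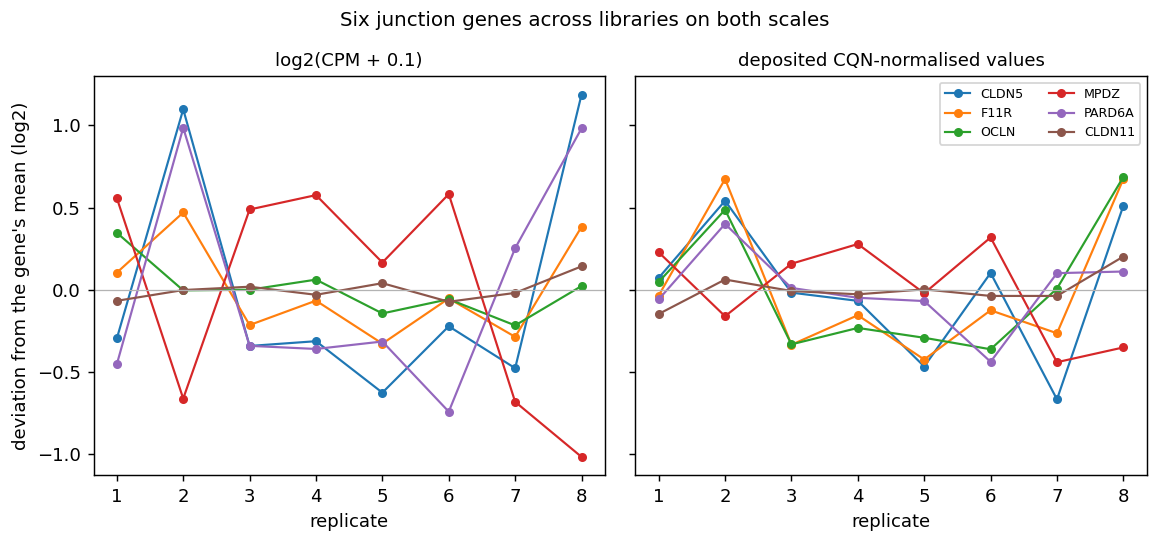
Deviation from each gene's mean (log2) in replicates 1 to 8 for CLDN5, F11R, OCLN, MPDZ, PARD6A and CLDN11, on log2(CPM + 0.1) at left and on the deposited CQN values at right. CLDN5, F11R and OCLN are highest in replicates 2 and 8 at right, and so is PARD6A, with replicate 7 close to replicate 8. The PARD6A spread shrinks from an SD of 0.67 to 0.23. CLDN11 stays near 0 on both, though replicates 2 and 8 are its highest libraries at right as well.

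Other genes of the junction, of polarity and of the YAP pathway were read from 3 further lists. Of 26 junction neighbours 22 were detected, with RHOA, the GTPase upstream of actomyosin tension (508 ± 32.5 RPKM), CSDA, or ZONAB, a ZO-1-bound transcription factor (140.5 ± 25.5), and CTTN, an actin-branching adaptor (103 ± 6.08), highest per length (SD, n = 8). ROCK1 (edgeR adjusted p = 1.26e-05) and ROCK2 (1.90e-07), the kinases that contract actomyosin at junctions, were the 2 of them that varied more than the trend. At an unadjusted p under 0.05 there were 3 of these 22, and against DESeq2's trend 6. Of all detected genes, 4.66% varied more than edgeR's trend, 13.1% had an unadjusted p under 0.05 and 23.5% exceeded DESeq2's trend. ROCK2 had 125, 30.5, 131, 126, 107, 125, 51.2 and 19.5 CPM, lowest in replicates 8, 2 and 7 like MPDZ. Of 24 polarity neighbours 16 were detected, led by RAC1, CDC42 and ECT2 at 225, 42.8 and 39.96 RPKM, and 0 varied more than the trend by edgeR's adjusted p (3 at an unadjusted p under 0.05, and 5 against DESeq2's trend).

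All 19 YAP pathway genes were detected. CTGF, CYR61 and ANKRD1, targets of YAP, were highest, at 2109, 773 and 711 RPKM. LATS1, a kinase that restrains YAP (edgeR adjusted p = 1.47e-06), TEAD1, its DNA-binding partner (0.0171), and MOB1A, the LATS cofactor (0.0403), varied more than the trend. These were 3 of 19 genes, against 4.66% of all detected genes. At an unadjusted p under 0.05 there were 5 (13.1% of all detected genes), and against DESeq2's trend 8 (23.5%). LATS1 was lowest in replicates 8 and 2, at 6.67 and 11.3 CPM against 19.996 to 49.6 CPM in the others.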

How the data were processed

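Polyadenylated RNA of 8 samples of hCMEC/D3 was sequenced from TruSeq v2 libraries, per the labels' protocols. The authors deposited 1 table of raw counts per gene and of CQN-normalised values on a log2 scale, per the file headers. The log2 scale was judged from the values. The submitters' processing notes name CASAVA 1.9, TopHat2 2.0.6, HTSeq and hg19. The annotation, the use of strand and the CQN settings are not given in the sources used here. All 186768 counts were even, so a limit of 3 read pairs stands for 6 counts. 0 columns belonged to no sample. Depth was 69388544 to 90205244 counts.

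CPM used TMM-scaled library sizes (edgeR 4.0.16, R 4.3.3). Lengths came from GENCODE 44 on GRCh37, matched by symbol (19467 genes) or synonym (1989). Table starts count from 0 and are printed 1-based. Variation used an intercept-only edgeR model with Benjamini-Hochberg adjustment over all detected genes, threshold 0.05. Tested on simulated data of all 8 libraries, it called 0 of 11828 unchanged genes, and 171 of 198 genes raised 4-fold in 1 library, with 3 unchanged genes called beside them. The simulated counts were drawn from the fitted trend, without the length and GC shifts between the real libraries. They therefore do not show how specific the calls in the real data are. Ratios used log2(CPM + 0.1) less the log2 length ratio, with an exact two-sided sign-flip test over 256 sign patterns. It was run on 21 of 25 listed pairs, those with both genes detected. 1 tested pair is not reported here.

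Members, gene lists and pairs were chosen with earlier results of these data known. Per-library values are given for detected claudins, called members and leading pair genes, and other members by range or mean. DESeq2 1.42.0 and other scales were tried as alternatives.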

Additional observations from a re-analysis of the deposited data

Results flagged for a closer look

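In 62 sets of 8 values (CPM and CQN values of the 31 detected members), 5 had a highest or lowest library farther from the next than 0.526 of the whole range. Chance flags about 1 in 20 such sets. LSR had 16.4 CPM in replicate 7, against 10.5 to 12.6 CPM in the others. OCLN had 35.1 CPM in replicate 1, against 23.7 to 28.8 CPM. On CQN values, AMOTL2 had 7.66 in replicate 8, against 8.49 to 9.01, and CLDN1 had 5.99 in replicate 3, against 6.37 to 6.60. CLDN23 had a CQN value of 2.55 in replicate 7, against 2.03 to 2.21.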

How the results depend on the processing

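The number of detected members was 26 to 39 under the other detection levels and scalings, and 31 without each replicate in turn. Of the members, 11 rather than 3 varied more than DESeq2's fitted trend. Between 2 and 4 did under the other settings, including 2 or 3 without each replicate. The median SD of members was 0.19 on CQN values, 0.20 with the length and GC trend removed and 0.20 without replicates 2 and 8, against 0.37. The number of gene pairs with a ratio other than 0 was 17 to 21 of 21 tested over the settings, and 18 without each replicate. With pairs of undetected members included it was 22 of 25.

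Some ratios changed direction. PARD6B/PARD6A was 0.71 without length correction. SCRIB/DLG1 was 0.14 without length correction, 0.89 on CQN values, 1.47 with union exon lengths, and 0.03, 0.00 and 0.01 without replicates 1, 5 and 6 (lowest without a replicate, -0.24). DLG1/LLGL1 was -0.58 with union exon lengths. Length corrections move these by construction, since they add a constant to each ratio. The settings without replicates 2 and 8 for pairs, variation and levels were added after the data were seen. No paired analysis was possible because all samples belong to 1 group.

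Whether depth limited the detected members was not tested. CLDN23, the lowest of them in mean CPM, had 114 to 228 counts per library. For the claudins without a count, levels under 3 read pairs could not be seen.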
